A study of Mus musculus with 6 samples.

Results

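Wnt ligands are secreted, lipid-carrying signalling proteins, and the genes described here are the ligands Wnt4, Wnt5a, Wnt5b, Wnt7a, Wnt7b and Wnt10a, the Frizzled receptors Fzd1, Fzd2 and Fzd7, and the receptor tyrosine kinase Ror2. All 10 were chosen by name, and each probe set annotated to one of them alone was taken, which gave 23 of the 45101 probe sets on the array. The study set cells that carried a vector for stable, constitutive Zeb1 expression (3 arrays) against cells with the empty pcDNA vector (3 arrays), all of them 393P cells grown in RPMI with fetal bovine serum. 393P is an epithelial mouse lung adenocarcinoma line, and Zeb1 is a transcriptional repressor that shuts down epithelial genes during epithelial-mesenchymal transition. The number of transfections or clones per group is unknown here, so p-values measure only the spread between these samples, which may be technical, and in bulk RNA a change per cell cannot be told apart from a change in the share of cells that express a gene. Each array gave a MAS5 signal per probe set, a summary made on that array alone.

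Wnt proteins bind Frizzled receptors on the cell surface. With the co-receptors Lrp5 and Lrp6 this protects beta-catenin from destruction and switches on its target genes, which is called canonical signalling. Other ligands, of which Wnt5a is the best known, act mainly through Frizzled with Ror2 on the cytoskeleton and cell polarity, without beta-catenin. In lung development Wnt7b is made by the airway epithelium and Wnt5a mostly by the mesenchyme and the tips of the growing airways.

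Wnt5a, Ror2 and Fzd7 rose strongly in Zeb1 vector cells. Wnt7b, Fzd1 and Wnt10a fell, as did 1 of the 2 tested probe sets of Wnt7a, which lay below the noise floor on every Zeb1 vector array. Fzd2 rose slightly on 1 of its 3 probe sets, and Wnt4 and Wnt5b did not pass the filter on dim signals. Of the 15 tested probe sets 12 passed limma's test at a Benjamini-Hochberg adjusted p under 0.05 (6 up, 6 down), where 46.1% of all 20594 tested probe sets passed (24.5% up, 21.6% down). The arrays of the groups did not overlap in 14 of the 15, against 55.4% of all tested. A probe set had to be at or above the median of its array on 3 or more arrays to be tested, so the 6 that were so on exactly the 3 arrays of 1 group had to differ, and these counts carry no weight of their own.

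All levels below are log2 signals. Signals under the 25th percentile of all values (log2 4.45) were raised to it before group means and tests, since MAS5 values that low are mostly noise. A fold change is written as "at least" where arrays of the dimmer group lay at this floor or where that group's mean lay under the 50th percentile (log2 6.32), called the higher floor below when it was used in place of the first. Where no array lay at the first floor the fold is the measured one and not a proven minimum, and the higher floor gives a smaller change. Probes differ in brightness, so a difference in level between 2 probe sets is not read as a difference in transcript amount.

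**Figure D1:**
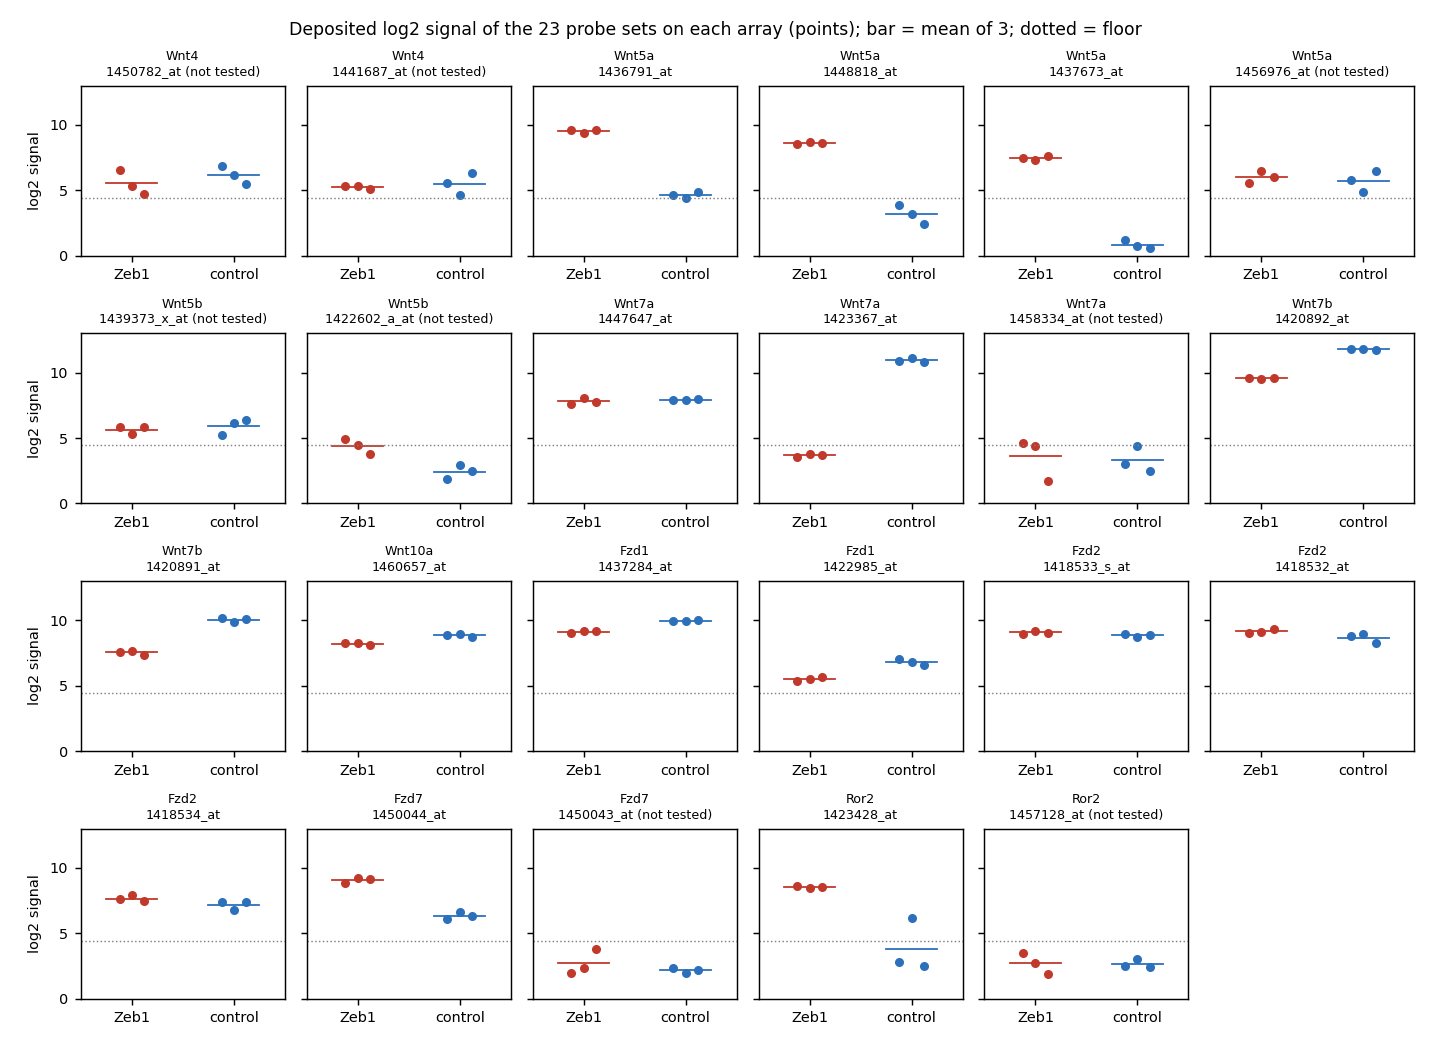
Deposited log2 signal of all 23 probe sets on each array, with the 3 Zeb1 vector arrays (red) left of the 3 control vector arrays (blue), the mean of each group as a bar and the floor as a dotted line. On every Zeb1 vector array 3 of the 4 Wnt5a probe sets, Fzd7 1450044_at and Ror2 1423428_at are higher than on any control vector array, and both Wnt7b probe sets and Wnt7a 1423367_at are lower.

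The vector's gene was checked first. On Zeb1 probe set 1418926_at the signals were 9.71, 9.59 and 9.78 in Zeb1 vector cells, against 3.36, 3.84 and 4.50 in control vector cells, an increase of at least 37.4-fold (adjusted p = 2.3e-08, limma). Probe set 1443005_at rose by 1.17 (adjusted p = 0.00895), and the other 2, 1420243_at and 1446127_at, lay at the floor on all 3 control vector arrays and were not tested. On the first probe set the signal matched the label on all 6 arrays. Across probe sets above the floor, r was 0.922 to 0.927 between arrays of different groups and 0.980 to 0.984 within a group. Of 8 epithelial markers 6 fell, among them Cdh1 to 10.17 ± 0.14 in Zeb1 vector cells, against 14.18 ± 0.027 in control vector cells (SD, n = 3 each), and Epcam to 6.66 ± 0.41, against 13.72 ± 0.080. Krt8 and Krt18 stayed bright, at 14.32 and 14.72 in Zeb1 vector cells, against 14.47 and 14.69 in control vector cells. Krt8 is among the 6 that fell, with a small change of -0.16 (adjusted p = 0.0131, limma), and Krt18 and Krt19 were not called. Nkx2-1, the lung lineage factor, was near the floor in both groups (4.63 ± 0.31 and 4.79 ± 0.34). Of the other lung lineage markers, named here after their values were seen, Abca3 fell to 7.50 ± 0.72 in Zeb1 vector cells, against 9.38 ± 0.25 in control vector cells, and Aqp5 fell to 6.68 ± 0.14, against 9.27 ± 0.17 (adjusted p = 0.000757 and 9.05e-07, limma). The other 6 tested markers of that list were not called. Of these, Sftpb and Sftpa1 were higher on every Zeb1 vector array, with changes of 0.36 and 0.89 (adjusted p = 0.060 and 0.110, limma). Hopx, Sftpc, Sftpd and Slc34a2 had changes of -0.21 to -0.02. The summed signal of the lung lineage list was log2 10.28 to 10.37 in Zeb1 vector cells and 10.99 to 11.17 in control vector cells. Of the 8 fibroblast, 6 endothelial and 7 leukocyte markers 5 could be tested, with changes of -0.25 to -0.02 that were not called, and Pdgfrb, Pecam1 and Vwf were at the floor on all arrays. The summed signal of the fibroblast list was log2 8.61 to 9.00 in Zeb1 vector cells and 8.42 to 9.15 in control vector cells. That of the endothelial list was 8.42 to 8.93 in Zeb1 vector cells and 8.44 to 8.92 in control vector cells, and that of the leukocyte list 8.89 to 9.33 in Zeb1 vector cells and 9.13 to 9.31 in control vector cells. The fibroblast markers Col3a1 and Col1a1, also named after their values were seen, were too dim for the filter but higher on every Zeb1 vector array, at 6.22 ± 0.12 in Zeb1 vector cells against 4.87 ± 0.19 in control vector cells for Col3a1, and at 5.95 ± 0.35 against 5.37 ± 0.32 for Col1a1. Dcn, Lum, Pdgfra and Thy1, also too dim for the filter, had lower means in Zeb1 vector cells, with overlapping groups. Their means were 4.66, 5.57, 5.57 and 5.52 in Zeb1 vector cells, against 5.45, 5.82, 5.96 and 5.72 in control vector cells. The part of these markers and of the wider epithelial change in the values below was not tested.

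Promoter windows are shown for the genes that changed and have one in the RefSeq promoter table (GRCm38.p6), which held 6 of the 10 genes. Each window runs from 250 bases before to 50 bases after the annotated start, 5′ to 3′ on the gene's strand. They lie at chr1:59481897-59482196 (plus strand) for Fzd7, chr13:53286075-53286374 (minus) for Ror2, chr6:91411304-91411603 (minus) for Wnt7a and chr5:4758167-4758466 (minus) for Fzd1. Capitals mark the general E-box core CANNTG, of which the best-known Zeb1 site is only a subset. A stretch in capitals is therefore not by itself a Zeb1 site.
Fzd7: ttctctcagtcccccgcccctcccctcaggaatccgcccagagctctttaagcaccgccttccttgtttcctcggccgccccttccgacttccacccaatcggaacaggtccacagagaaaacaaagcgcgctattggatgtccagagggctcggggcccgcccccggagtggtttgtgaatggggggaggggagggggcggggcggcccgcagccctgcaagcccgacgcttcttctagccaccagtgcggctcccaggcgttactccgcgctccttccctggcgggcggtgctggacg
Ror2: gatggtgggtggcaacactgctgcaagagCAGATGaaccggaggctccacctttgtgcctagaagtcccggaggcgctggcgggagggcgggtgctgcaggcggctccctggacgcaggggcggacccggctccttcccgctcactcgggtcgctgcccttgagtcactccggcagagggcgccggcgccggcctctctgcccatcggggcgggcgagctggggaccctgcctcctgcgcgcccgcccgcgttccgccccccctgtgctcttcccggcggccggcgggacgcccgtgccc
Wnt7a: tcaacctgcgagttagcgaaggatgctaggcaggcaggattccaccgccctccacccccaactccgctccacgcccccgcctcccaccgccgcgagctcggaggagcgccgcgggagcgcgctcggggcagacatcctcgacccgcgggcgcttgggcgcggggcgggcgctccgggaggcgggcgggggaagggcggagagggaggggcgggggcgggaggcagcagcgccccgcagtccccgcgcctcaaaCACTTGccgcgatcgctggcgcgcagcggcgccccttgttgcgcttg
Fzd1: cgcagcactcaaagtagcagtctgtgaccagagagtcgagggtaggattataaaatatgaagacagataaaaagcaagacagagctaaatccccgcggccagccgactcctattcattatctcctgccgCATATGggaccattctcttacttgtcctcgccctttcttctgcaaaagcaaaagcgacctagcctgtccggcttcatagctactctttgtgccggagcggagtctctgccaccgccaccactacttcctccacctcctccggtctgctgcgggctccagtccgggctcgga
Ror2, Wnt7a and Fzd1 each held 1 such core and Fzd7 held 0, where 72.3% of all 32851 windows in the table held at least 1. The variant CACCTG, searched on both strands and so also as CAGGTG, and a subset of the core, is the best-known Zeb1 site. It was in none of these 4 windows and in 20.2% of all windows. The shorter letters CACCT were not searched or marked. Among the dim genes the Wnt4 window held 1 CACCTG and 2 of the 3 Wnt5b windows held 1 each. The TCF/LEF core CTTTGA, on both strands, was found in Fzd1 and in 1 Wnt5b window, and in 16.0% of all windows. These matches describe letters in short windows and say nothing of binding.

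Wnt5a, the ligand best known for beta-catenin-independent signalling, rose on 3 of its 4 probe sets. On 1436791_at the signals were 9.60, 9.37 and 9.58 in Zeb1 vector cells, against 4.67, 4.45 and 4.91 in control vector cells. The control values sit at or just above the floor and far below every Zeb1 vector array. The change was 4.84 (SE 0.20, adjusted p = 7.41e-08), or at least 28.7-fold, and 3.20 with the higher floor.

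The other probe sets of Wnt5a differed in brightness. On 1448818_at the signals were 8.57, 8.68 and 8.60 in Zeb1 vector cells, against 3.88, 3.17 and 2.46 in control vector cells. All 3 control vector arrays were at the floor, so the rise was at least 18.0-fold (adjusted p = 3.35e-07). Its log2 change was 4.17, or 2.29 with the higher floor. On 1437673_at the signals were 7.44, 7.31 and 7.61 in Zeb1 vector cells, against 1.20, 0.77 and 0.58 in control vector cells, a rise of at least 8.04-fold (adjusted p = 1.65e-05). Its change was 3.01, or 1.13 with the higher floor and 6.60 with none. The probe set 1456976_at did not pass the filter, and its arrays overlapped, at 5.60, 6.46 and 6.03 in Zeb1 vector cells and 5.82, 4.91 and 6.45 in control vector cells. The stretch of transcript that each of these reads is not known here.

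Wnt5b, the close relative of Wnt5a, reached its array's median on no array. The probe set 1439373_x_at gave 5.86, 5.27 and 5.81 in Zeb1 vector cells and 5.26, 6.17 and 6.38 in control vector cells, with overlapping groups. On 1422602_a_at the signals were 4.91, 4.50 and 3.79 in Zeb1 vector cells, against 1.85, 2.94 and 2.51 in control vector cells. These are higher on every Zeb1 vector array, but the control values and 1 Zeb1 vector value lie under the floor. With no filter the changes were -0.29 (adjusted p = 0.688) and 0.17 (adjusted p = 0.502).

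Wnt7b, the epithelial ligand of the developing lung, fell on both of its probe sets and kept a clear signal. On 1420892_at the signals were 9.59, 9.54 and 9.62 in Zeb1 vector cells, against 11.77, 11.82 and 11.74 in control vector cells. The groups were far apart relative to their spread, and the change was -2.19 (SE 0.071, adjusted p = 1.76e-08), a 4.57-fold fall. On 1420891_at the signals were 7.61, 7.67 and 7.38 in Zeb1 vector cells, against 10.18, 9.87 and 10.10 in control vector cells. This probe set fell by 2.50 on the log2 scale (SE 0.13, adjusted p = 4.18e-07), which is 5.65-fold.

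Wnt7a, the paralogue of Wnt7b and known for canonical and other Wnt signals in epithelia, gave probe sets that disagreed. On 1423367_at the signals were 3.55, 3.78 and 3.73 in Zeb1 vector cells, against 10.85, 11.11 and 10.82 in control vector cells. All 3 Zeb1 vector arrays were at the floor, and the fall was at least 89.3-fold (log2 change -6.48, SE 0.15, adjusted p = 3.21e-09). The higher floor gave a change of -4.60, and no floor gave -7.24. This was the largest change among the 15 tested probe sets.

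On Wnt7a 1447647_at, the brighter probe set over all arrays, the signals were 7.64, 8.03 and 7.78 in Zeb1 vector cells and 7.88, 7.93 and 7.95 in control vector cells. The groups overlapped, and the change was -0.10 (SE 0.15, adjusted p = 0.621). The third, 1458334_at, was dim in both groups, at 4.66, 4.41 and 1.72 in Zeb1 vector cells and 3.02, 4.41 and 2.46 in control vector cells, and was not tested. Where a gene is represented below by its brightest tested probe set, Wnt7a therefore counts as not called. With the higher floor, or without any 1 of the Zeb1 vector arrays, 1423367_at is the brighter one and Wnt7a counts as a fall.

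Wnt10a, a ligand of canonical signalling in skin, teeth and other epithelia, fell modestly. Its only probe set, 1460657_at, gave 8.23, 8.26 and 8.09 in Zeb1 vector cells, against 8.89, 8.97 and 8.68 in control vector cells. The groups did not overlap, and the change was -0.66 (SE 0.13, adjusted p = 0.00215), a 1.57-fold fall.

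Wnt4, a ligand of kidney and reproductive tract development, was dim and uneven. The probe set 1450782_at gave 6.59, 5.33 and 4.75 in Zeb1 vector cells and 6.85, 6.14 and 5.50 in control vector cells. The probe set 1441687_at gave 5.34, 5.35 and 5.11 in Zeb1 vector cells and 5.53, 4.64 and 6.32 in control vector cells. The groups overlapped on both, neither passed the filter, and with no filter the changes were -0.61 (adjusted p = 0.592) and -0.23 (adjusted p = 0.843).

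The receptors went in different directions. Fzd7, a Frizzled known from stem cells and several carcinomas, rose on the probe set that could be tested. On 1450044_at the signals were 8.84, 9.21 and 9.18 in Zeb1 vector cells, against 6.11, 6.65 and 6.31 in control vector cells. Every Zeb1 vector array was higher by over 2 units, and the change was 2.72 (SE 0.19, adjusted p = 2.65e-06), or 6.57-fold. The other probe set, 1450043_at, lay under the floor on all 6 arrays.

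Fzd1, a receptor used mainly in canonical signalling, fell on both probe sets. On 1437284_at the signals were 9.03, 9.15 and 9.22 in Zeb1 vector cells, against 9.96, 9.97 and 9.99 in control vector cells, a fall of 1.79-fold (log2 change -0.84, SE 0.093, adjusted p = 6.07e-05). On 1422985_at they were 5.39, 5.51 and 5.70 in Zeb1 vector cells, against 7.07, 6.82 and 6.61 in control vector cells. The groups were apart on both, and the second fell by at least 2.46-fold (log2 change -1.30, adjusted p = 0.00286). The higher floor gave -0.51 (adjusted p = 0.0236).

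Fzd2, a Frizzled that binds Wnt5a among other ligands, moved little. On 1418532_at the signals were 9.00, 9.14 and 9.30 in Zeb1 vector cells, against 8.76, 8.91 and 8.25 in control vector cells. The groups did not overlap, and the change of 0.51 (SE 0.17) passed the test narrowly (adjusted p = 0.0377, 1.42-fold). That call was lost under quantile normalization (adjusted p = 0.0532), with no filter (adjusted p = 0.166), with no intensity trend in the variance (adjusted p = 0.0753) and on leaving out any array other than control vector replicate 2. On 1418533_s_at the change was 0.20 (SE 0.12, adjusted p = 0.189) and on 1418534_at it was 0.48 (SE 0.23, adjusted p = 0.116), neither of them called.

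Ror2, a co-receptor through which Wnt5a acts without beta-catenin, rose on 1423428_at. The signals were 8.61, 8.48 and 8.56 in Zeb1 vector cells, against 2.81, 6.17 and 2.49 in control vector cells. Control vector replicate 2 stood apart from the other control vector arrays, which were at the floor, and was still lower than every Zeb1 vector array. The change was 3.53 (SE 0.42, adjusted p = 9.93e-05), or at least 11.5-fold. It was 4.10 without that array, and 2.23 with the higher floor. The second probe set, 1457128_at, lay under the floor on all 6 arrays.

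**Figure D2:**
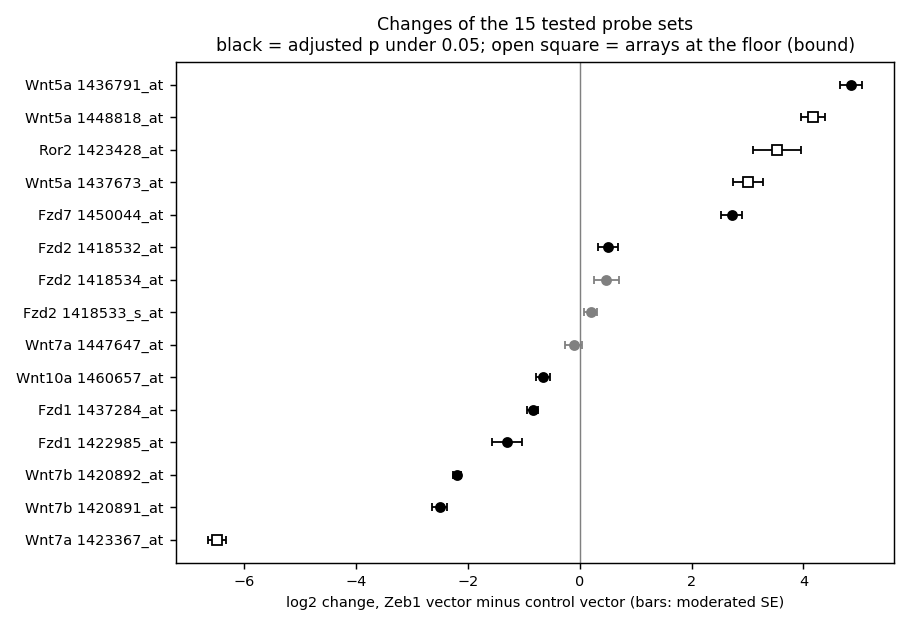
Log2 change (Zeb1 vector minus control vector) of the 15 tested probe sets with limma's moderated standard error as bars; black marks passed the adjusted test, grey ones did not, and open squares are bounds from arrays at the floor. Wnt5a (4.84) and Wnt7a 1423367_at (-6.48) lie at the ends, and the 3 Fzd2 probe sets lie between 0.20 and 0.51.

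Wnt5a and Wnt7b, the mesenchymal and the epithelial ligand of the lung, moved in opposite directions. On their brightest probe sets the change of Wnt5a exceeded that of Wnt7b by 7.04 on the log2 scale as measured, and by at least 5.39 with the higher floor, since Wnt5a was at or just above the floor in control vector cells. Taken per array, the log2 difference Wnt5a minus Wnt7b was 0.01, -0.17 and -0.03 in Zeb1 vector cells, against -7.10, -7.37 and -6.83 in control vector cells. The means were -0.063 ± 0.097 in Zeb1 vector cells and -7.10 ± 0.27 in control vector cells (SD, n = 3 each). The shift is far wider than the spread of either group. A value near 0 does not mean equal amounts of the 2 transcripts, since the probe sets differ in brightness. The pair was named with earlier results known, so it carries no p of its own.

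**Figure D3:**
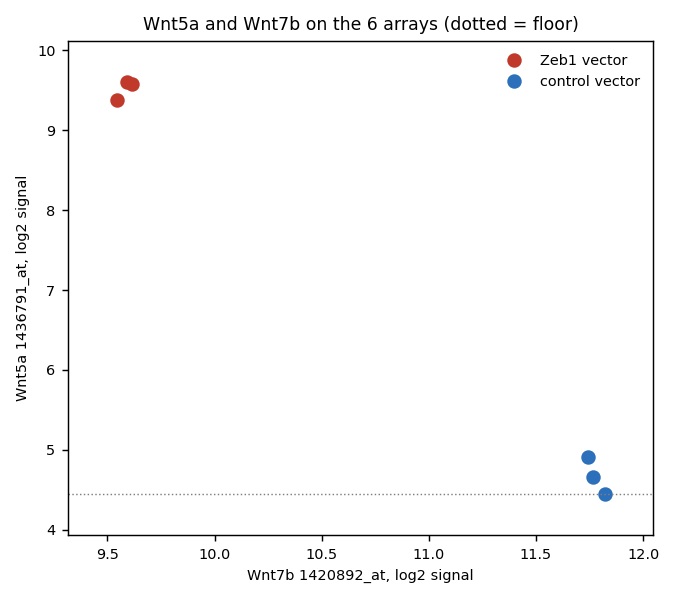
Log2 signal of Wnt5a 1436791_at (vertical axis) against that of Wnt7b 1420892_at (horizontal axis), 1 point per array, with Zeb1 vector arrays in red, control vector arrays in blue and the floor as a dotted line. The 3 Zeb1 vector arrays lie at high Wnt5a and low Wnt7b, and the 3 control vector arrays at low Wnt5a and high Wnt7b.

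Over the 6 arrays the genes outside the pathway lists whose signal ran most like that of Wnt5a were Prrx2, a homeobox factor of mesenchyme (Pearson r = 0.9998), Epdr1 (r = 0.9996) and Mgst2, a microsomal glutathione transferase (r = 0.9995). For Wnt7b they were the kinase scaffold Akap12 (r = 0.9999), Bcl2l15 (r = 0.9998) and the epithelial splicing regulator Esrp1 (r = 0.9998). With 2 groups of arrays such values follow the group difference: of 11799 genes compared 445 had r over 0.99 with Wnt5a and 457 with Wnt7b. The changes of these genes were 2.62 for Prrx2, 0.72 for Epdr1, 2.56 for Mgst2, -3.19 for Akap12, -3.06 for Bcl2l15 and -6.43 for Esrp1.

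The other genes of the pathway were taken from lists, each gene by its brightest tested probe set. Of all 11893 tested genes 49.3% passed the test (25.8% up, 23.5% down), with a median log2 change of 0.01. Of the 19 mouse Wnt ligands 6 were tested, of which 1 rose (Wnt5a) and 3 fell (Wnt7b, Wnt10a and Wnt11), with a median change of -0.40. With the higher floor, where Wnt7a is represented by 1423367_at, 4 fell and the median was -0.67. Without any 1 of the Zeb1 vector arrays 5 fell, Wnt7a and Wnt9a among them, and the median was -1.02 to -0.60. Without any 1 of the control vector arrays it was -0.84 to -0.18. With no filter, where all 19 were tested, it was -0.15. Wnt11, a ligand of beta-catenin-independent signalling in morphogenesis, fell to 5.77 ± 0.42 in Zeb1 vector cells, against 7.01 ± 0.44 in control vector cells, by at least 2.35-fold (adjusted p = 0.0106). With the higher floor its change was -0.68 (adjusted p = 0.0255, limma). It fell while Wnt5a rose, although both ligands are known for acting without beta-catenin.

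In the secretion list 1 of 4 tested genes rose and 1 fell. Wls, which carries Wnt proteins to the cell surface, rose to 10.55 ± 0.045 in Zeb1 vector cells, against 8.04 ± 0.11 in control vector cells, which is 5.70-fold, and its other 2 probe sets rose by 3.15 and 1.97. Porcn, the enzyme that attaches the lipid to Wnt proteins, fell to 6.41 ± 0.17 in Zeb1 vector cells, against 7.83 ± 0.071 in control vector cells, which is 2.67-fold.

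Of the 10 Frizzled genes 9 were tested, and 4 rose and 1 fell (median change 0.23). Beside Fzd7 those that rose were Fzd5, Fzd8 and Fzd3. Fzd5 rose by 1.39 (9.79 ± 0.042 in Zeb1 vector cells against 8.40 ± 0.14 in control vector cells), and by 0.52 on its other tested probe set. Fzd8 rose by 1.33 and Fzd3 by 1.02 (adjusted p = 0.0429, limma). The other 2 probe sets of Fzd3 rose by 1.97 and 2.20. Fzd1 was the receptor that fell. Of the co-receptors 1 of 7 rose, Ror2, and 4 fell, with a median change of -0.51. Ror1, the paralogue of Ror2, fell by 1.54 on the log2 scale (6.47 ± 0.23 in Zeb1 vector cells, against 8.01 ± 0.099 in control vector cells). Ptk7, a planar polarity co-receptor, fell by 1.83, and Adgra2, a co-receptor for Wnt7a and Wnt7b, fell by 1.72.

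Among secreted and membrane antagonists 2 of 8 tested genes rose and 1 fell. Apcdd1, a membrane inhibitor of Wnt signals, rose to 12.34 ± 0.12 in Zeb1 vector cells, against 8.58 ± 0.23 in control vector cells, which is 13.6-fold (adjusted p = 1.73e-08, limma). All 5 of its tested probe sets rose, by 1.80 to 3.88. Igfbp4, an IGF-binding protein that also inhibits Wnt signals, rose by 0.99 and by up to 2.83 on its other probe sets, while Kremen1, a receptor for the antagonist Dkk1, fell by 0.44.

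In the R-spondin and receptor turnover list 3 of 4 tested genes rose and 1 was not called, with a median change of 0.95. That median depended on which genes were tested. It was 0.23 to 0.28 on leaving out any array other than Zeb1 vector replicate 2, with 5 genes tested. Without Zeb1 vector replicate 2 it was 0.98, and with no filter, where 9 genes were tested, it was -0.16. The R-spondin receptor Lgr6 rose to 11.41 ± 0.19 in Zeb1 vector cells, against 8.08 ± 0.12 in control vector cells, which is 10.1-fold. That is a log2 change of 3.34, and the other tested probe set of Lgr6 rose by 1.63. Lgr4 rose 3.12-fold. Znrf3, a ubiquitin ligase that removes Frizzled from the surface, rose by 0.27 (adjusted p = 0.0336), a call that was lost on leaving out any array other than control vector replicate 2 (adjusted p = 0.0534 to 0.0905).

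In the beta-catenin relay and nuclear factor list 9 of 20 tested genes rose and 3 fell, with a median change of 0.26. The largest rises were those of the nuclear partner Tcf7l2 (0.86), the destruction complex scaffold Apc (0.68) and the co-repressor Tle3 (0.56). The 3 falls were those of the co-repressor Tle4 (-2.16), the kinase Csnk1e (-0.89) and the scaffold Axin1 (-0.56). Of 12 tested genes commonly used as beta-catenin targets 4 rose and 2 fell (median 0.18). Jag1, a Notch ligand, rose by 1.64, the transcription factor Sox9 by 1.10 and the hyaluronan receptor Cd44 by 0.54. Ephb3, an Eph receptor, was at least 18.7-fold lower, and Myc fell by 0.25. Axin2, the target most often used as a readout, was added with its value known, and it gave a change of 0.09 (adjusted p = 0.819, limma). It was dim, at 6.48 ± 0.20 in Zeb1 vector cells and 6.39 ± 0.38 in control vector cells, close to the higher floor. Lef1, Lgr5, Sp5, Rnf43 and Nkd2 are among the targets of the list that were not tested.

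In the planar polarity and Wnt5a relay list 7 of 26 tested genes rose and 8 fell (median -0.12). Fat4, a giant cadherin of planar polarity, was at least 6.48-fold higher, the calcium-regulated factor Nfatc1 rose by 2.29 and the kinase subunit Camk2d by 0.97. The changes of the largest falls were -1.97 for the polarity cadherin Celsr1, -1.45 for the ubiquitin ligase Siah2 and -1.38 for Nfatc2. The other tested probe set of Siah2 had a change of -0.54. The calls of Fzd3, Kremen1, Tle3 and Myc were likewise lost on leaving out 1 array, for 4 or 5 of the 6 arrays. Among the genes named from these lists, Kremen1, Tle3, Axin1, Camk2d, Nfatc1 and Nfatc2 also had probe sets that were not called. In all 4 of 6 tested Wnt ligands, 2 of 4 secretion genes, 5 of 9 Frizzled genes, 5 of 7 co-receptors and 3 of 8 antagonists passed. So did 3 of 4 R-spondin and turnover genes, 12 of 20 relay genes, 6 of 12 targets and 15 of 26 planar polarity genes. Of all tested genes 49.3% passed, and no list was tested as a set. Wnt5a, Ror2, Fat4 and Ephb3 are among the genes that passed the filter on exactly the 3 arrays of 1 group. Such genes had to differ, so these counts carry no weight of their own.

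**Figure D4:**
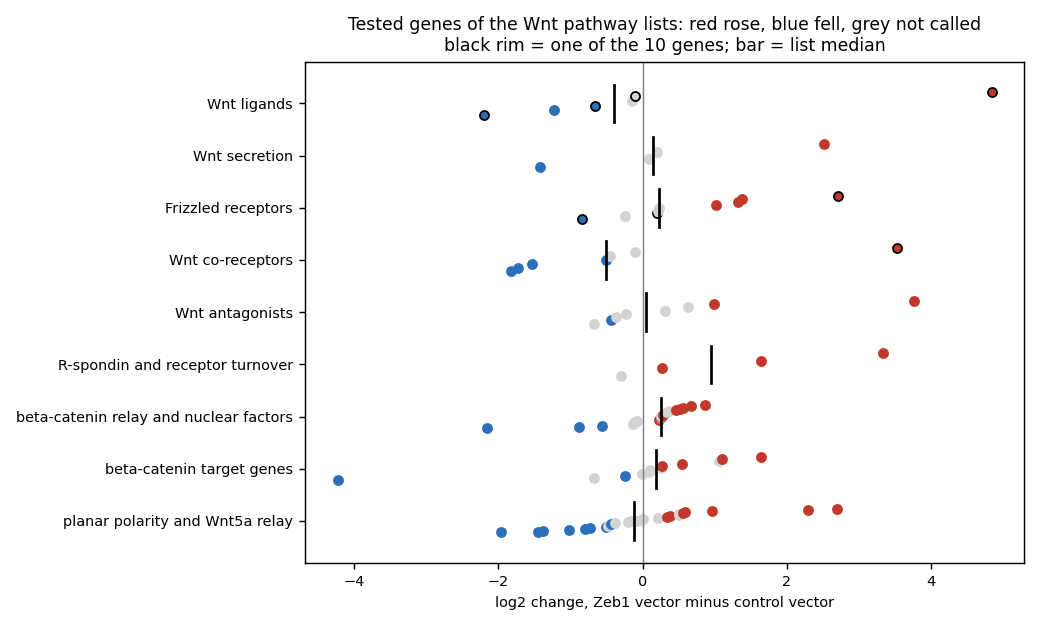
Log2 change (Zeb1 vector minus control vector) of each tested gene in the 9 Wnt pathway lists, by its brightest tested probe set; red genes rose, blue fell, grey were not called, a black rim marks one of the 10 genes and the bar is the list median. Medians run from -0.51 (co-receptors) to 0.95 (R-spondin and receptor turnover), and Wnt5a (4.84) and Ephb3 (-4.22) are the extremes.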

How the data were processed

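The authors deposited a table of log2 signals for 6 Affymetrix arrays, and MAS5 is named per the submitters' processing notes, with no version. Out of log2, 100% of the deposited values were multiples of 0.1 (tolerance 0.01), and the mean with 2% trimmed from each end was 500.0 to 500.2 on each array. The 2 empty values, on control vector replicate 2, were set to the floor (25th percentile, linear 21.8; 24.0% to 26.4% of probe sets per array).

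Gene symbols came from the platform annotation. Control probe sets (64) and those with several symbols (932) or none (9160) were left out, which left 34945, of which 34741 matched the RefSeq table of GRCm38.p6 by Entrez identifier and 0 symbols changed. The filter passed 20594. The groups were compared with limma 3.58.1 in R 4.3.3 (lmFit and trended eBayes). P-values were adjusted over these 20594 by Benjamini-Hochberg at a threshold of 0.05; errors of changes are moderated standard errors (median 0.15). All adjusted p-values are limma's. The script was first tested on simulated data. Precision is limited by the small number of arrays.

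Named were every probe set of the 10 genes and of Zeb1, up to 3 rises and 3 falls per pathway list, and the 3 genes most like Wnt5a and Wnt7b. The 10 genes, lists and rules were chosen with earlier results of these data known. Alternatives were the floor, filter, quantile normalization, 1 probe set per gene, no trend, the replicate block, and leaving out each array (filter then at 2 of 5 arrays). Promoter windows were searched in Python 3.11.15.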

Additional observations from a re-analysis of the deposited data

How the results depend on the processing

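Of 196 log2 changes recomputed for the 15 tested probe sets under the alternatives, 188 kept their direction and their side of the threshold, 8 kept the direction and lost the threshold, and 0 reversed. All 8 belong to Fzd2 1418532_at: its change was 0.51 with no filter and with no intensity trend (adjusted p = 0.0753), 0.47 under quantile normalization, and 0.31 to 0.58 on leaving out 1 array other than control vector replicate 2. Without that array it was 0.65 and kept its call. The cause was not tested. The higher floor gave a shift of Wnt5a against Wnt7b of 5.39. The filter on all 6 arrays drops probe sets that are under their array's median on any array. With it the probe sets of Wnt5a, Fzd7 and Ror2, which rose in the main fit, were not tested. Nor were Wnt7a 1423367_at and Fzd1 1422985_at, which fell in it. Of the probe sets of the 10 genes 1 then rose (Fzd2 1418532_at) and 4 fell, where 4211 of all rose and 3884 fell. The called genes numbered 2 of 4 tested in the Wnt ligand list, 2 in the Frizzled list and 1 in the secretion list. The other totals tested under this filter are not given here, so these counts cannot be read as shares or set against those above. With 1 probe set per gene, which tests fewer features, 8 of the 10 genes were tested, and 3 rose and 3 fell. Of all 11893 genes 3139 then rose and 2865 fell. Replicate numbers do not pair the arrays: deviations of same-numbered arrays from their group means correlated at 0.017, 0.014 and -0.039. With the replicate block all 12 called probe sets kept their call, for example Wnt5a 1436791_at (4.84, adjusted p = 9.7e-08), and 4957 of all rose and 4420 fell. Quantile normalization moved the median change of all probe sets by -0.04. Of 32 named pathway genes 5 lost their call on leaving out an array (Fzd3, Kremen1, Znrf3, Tle3 and Myc), Znrf3 under the replicate block (adjusted p = 0.0625), and Wnt11 with no filter alone (adjusted p = 0.0636). Signals near the floor limit what can be tested; Wnt4 and Wnt5b did not pass the filter.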
